A study of Mus musculus with 6 samples.

Results

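Coagulation and fibrinolysis were followed here through 9 genes measured in bone marrow-derived macrophages (BMDMs) 1 h after lipopolysaccharide (LPS), a cell wall component of Gram-negative bacteria. The genes were F3, F10 and F13a1 for clot formation, Thbd for its restraint, Thbs1 for platelet and matrix adhesion, and Plau, Plaur, Plat and Serpinb2 for the breakdown of fibrin. They were chosen by gene symbol, and each matched 1 of the 55335 gene identifiers in the count table. Total RNA of C57BL/6 BMDMs, whose library names all carry WT (wild type), grown for 6 days with L929-conditioned medium, was sequenced in 3 control libraries given PBS for 1 h and 3 libraries given LPS for 1 h. The cells of both groups carried no other treatment in the labels, which give neither the LPS dose nor the age and sex of the mice. Replicates are numbered 1 to 3 in each group and the same numbers are given as batches. Nothing in the labels ties a library to an animal, so the p-values measure the spread between these samples, which may be technical.

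Blood clots when tissue factor (F3) on a cell surface binds factor VII and the pair activates factor X (F10), after which thrombin turns fibrinogen into fibrin and factor XIII (F13a1) cross-links it. Thrombomodulin (Thbd) binds thrombin and redirects it to activate protein C, an anticoagulant. Fibrin is dissolved by plasmin, which urokinase (Plau, held at the cell surface by its receptor Plaur) and tissue-type plasminogen activator (Plat) cut from plasminogen, and the serpin PAI-2 (Serpinb2) can block both activators. Monocytes and macrophages are known to display tissue factor and urokinase receptor when activated by bacterial products.

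All 9 genes were higher in LPS than in control libraries with TMM scaling (8 of 9 with library size alone, where F13a1 was lower), by amounts that were smallest for F13a1 (1.14-fold) and largest for Plat. Levels are CPM, the counts of a gene relative to its library's total, scaled by TMM factors. Only RNA was measured, so where a protein is named with a level, the RNA of its gene is meant. Each gene was tested in 1 edgeR fit over 15687 genes by the quasi-likelihood test, with p-values adjusted over all of them by the Benjamini-Hochberg method. A log2 fold change above 1 together with an adjusted p under 0.05 was reached by 7 of the 9 genes, beside 10.5% of all tested genes that passed in this direction and 10.4% in the other. F10 and F13a1 passed on the adjusted p alone, which 67.7% of all tested genes did in either direction, and no member fell with TMM scaling. F13a1 lost this call with upper quartile scaling (adjusted p = 0.339, edgeR). The median log2 fold change of the 9 genes was 3.54, against -0.01 over all tested genes. For each of the 9, the 3 LPS libraries lay above the 3 control libraries on the TMM scale, so every same-numbered pair had the same sign by necessity. The share of all tested genes with groups separated in this way was not computed. Separation alone does not set the members apart, since the groups of the macrophage gene Lyz2 did not overlap either (log2 fold change 0.06).

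Libraries held between 37787611 and 41516330 counts, and a floor of 3 counts corresponded to 0.0630 to 0.0919 CPM, which covers counting error only. The TMM factors averaged 1.15 in control and 0.869 in LPS libraries, so scaling bears on small differences: the median of all tested genes moved by -0.40 on the log2 scale under library size alone and by -0.14 under upper quartile scaling. Of the genes past both criteria, 50.4% were higher in LPS with TMM and 29% with library size alone.

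**Figure D1:**
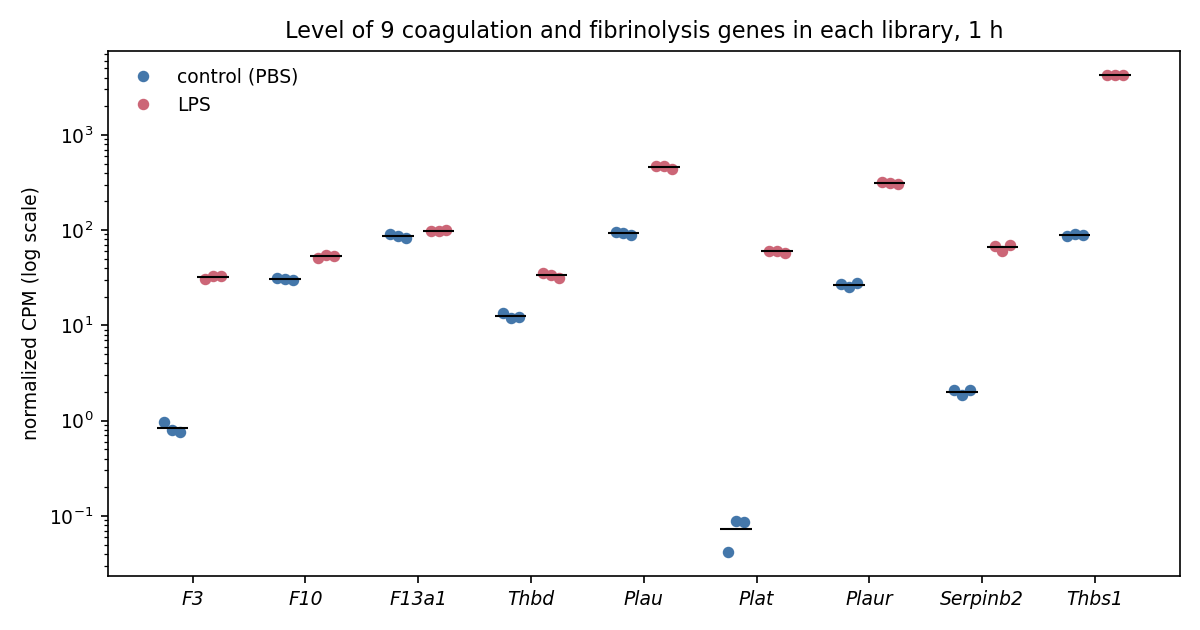
Normalized CPM (log scale) of the 9 genes in the 3 control and 3 LPS libraries, each point 1 library and each bar the group mean. For every gene the LPS points on this TMM-scaled axis lie above the control points, by the widest gap for Plat (0.0420 to 0.0885 CPM against 57.9 to 60.7) and the narrowest for F13a1 (83.3 to 90.5 against 96.8 to 100.7).

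RNA for tissue factor, the cell-surface protein that starts the clotting cascade, rose from near 1 CPM. F3 (ENSMUSG00000028128.13, chr3:121723537-121735048 of GRCm38, plus strand) stood at 0.966, 0.797 and 0.759 CPM in control libraries 1, 2 and 3 and at 30.7, 32.7 and 33.4 CPM in LPS libraries 1, 2 and 3. The lowest LPS library lay far above the highest control library, and the spread within either group was small beside that gap. Its mean went from 0.840 ± 0.110 to 32.3 ± 1.37 CPM (SD, n = 3). This is 5.25 on the log2 scale with a standard error of 0.09 (edgeR quasi-likelihood, adjusted p = 6.77e-19). The ratio of summed normalized counts was 38.3 with a 95% counting interval from 31.8 to 46.5, wider than this standard error would give.

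Promoters, the 250 bases before and 50 bases after the annotated start in RefSeq on GRCm38.p6, had an entry for 5 of the 9 genes (F3, F10, F13a1, Plaur and Serpinb2) and none for Thbd, Thbs1, Plau and Plat. The promoters of F3, Serpinb2 and Plaur, the members past both criteria that had an entry, are shown to compare genes that rose together. AP-1 is a factor made of Jun and Fos proteins, and matches to its motif TGANTCA, searched on both strands, are in capitals.
F3 promoter, chr3:121723287-121723586, plus strand: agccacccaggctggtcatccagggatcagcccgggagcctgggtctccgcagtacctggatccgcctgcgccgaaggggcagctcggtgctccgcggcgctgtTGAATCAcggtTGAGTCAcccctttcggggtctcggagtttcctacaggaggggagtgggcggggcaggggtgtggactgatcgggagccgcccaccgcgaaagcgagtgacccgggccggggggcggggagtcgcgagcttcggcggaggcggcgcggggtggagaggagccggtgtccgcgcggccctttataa
Serpinb2 promoter, chr1:107511173-107511472, plus strand: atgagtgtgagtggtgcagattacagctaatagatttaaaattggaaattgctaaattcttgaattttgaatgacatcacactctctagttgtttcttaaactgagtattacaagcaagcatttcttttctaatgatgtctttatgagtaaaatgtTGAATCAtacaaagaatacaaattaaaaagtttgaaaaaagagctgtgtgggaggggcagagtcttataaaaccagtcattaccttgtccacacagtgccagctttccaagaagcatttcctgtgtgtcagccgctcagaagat
Plaur promoter, chr7:24462233-24462532, plus strand: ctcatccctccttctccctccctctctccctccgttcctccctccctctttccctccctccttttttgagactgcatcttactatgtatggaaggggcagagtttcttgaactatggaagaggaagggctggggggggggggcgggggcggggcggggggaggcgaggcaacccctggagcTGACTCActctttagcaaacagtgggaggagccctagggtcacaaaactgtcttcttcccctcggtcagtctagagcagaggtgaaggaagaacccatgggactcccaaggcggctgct
Serpinb2 has another entry that overlaps the one shown and holds the same match. The F3 sequence holds 2 matches, at -146 to -140 and -135 to -129 from the start, Serpinb2 holds 1 at -94 to -88 and Plaur 1 at -69 to -63. The F10 and both F13a1 promoters hold 0. Among 32851 RefSeq promoters of the same length, 7.81% hold the motif.

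Other motifs searched in the same windows were NF-kB (GGG, any 5 bases, CC), the cAMP response element (TGACGTCA) and the SP1/KLF motif (GGGCGG). Counted on each strand, NF-kB letters were found 4 times in F3 (2 places, each matched on both strands 1 base apart), 3 times in Plaur (2 places, 1 of them matched on both strands), once in F10, once in 1 of the F13a1 promoters and not in Serpinb2, and 50.8% of all promoters hold them. GGGCGG occurred 3 times each in F3 and Plaur and in 35.7% of all promoters, and in F3 some of these letters overlap NF-kB matches. TGACGTCA was in none of the 5 genes' windows and in 1.79% of all promoters. These matches describe letters in a window and say nothing of binding.

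RNA for factor X, the protease that tissue factor and factor VII activate, was already present in control cells. F10 (ENSMUSG00000031444.16, chr8:13037308-13056676, plus strand) stood at 31.8, 30.8 and 30.1 CPM in control and 51.6, 54.4 and 53.0 CPM in LPS libraries. The groups did not overlap, and the 3 libraries of each lay within a few CPM of one another. The log2 fold change was 0.78 (SE 0.04, adjusted p = 1.57e-11, edgeR), a 1.72-fold difference under the fold criterion, and 0.37 with library size alone. F7, which encodes the partner of tissue factor, lies 1498 bp from F10 and stood at 13.9 CPM in control and 13.6 CPM in LPS (log2 fold change -0.03, SE 0.06, adjusted p = 0.676, edgeR).

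The A subunit of factor XIII, the transglutaminase that cross-links fibrin and that macrophages are known to contain, differed least. F13a1 (ENSMUSG00000039109.16, chr13:36867178-37050244, minus strand) stood at 90.5, 86.6 and 83.3 CPM in control and 96.8, 98.3 and 100.7 CPM in LPS libraries. The LPS libraries were all higher on this scale, with a gap between groups smaller than the range within control. The log2 fold change was 0.18 (SE 0.04, adjusted p = 0.000311, edgeR), with differences of 0.10, 0.18 and 0.27 in same-numbered pairs 1, 2 and 3. Its direction and call depend on the scaling: the log2 fold change was -0.22 with library size alone (adjusted p = 3.70e-05, edgeR) and 0.041 with upper quartile scaling (adjusted p = 0.339, edgeR).

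Thrombomodulin, the thrombin receptor on the anticoagulant side, had a smaller fold change than tissue factor. Thbd (ENSMUSG00000074743.4, chr2:148404466-148408188, minus strand, 1 exon) stood at 13.3, 11.8 and 12.2 CPM in control and 35.2, 34.0 and 31.8 CPM in LPS libraries. No LPS library came near the control range. The log2 fold change was 1.43 (SE 0.06, adjusted p = 2.82e-13, edgeR), and 1.03 with library size alone, still past the fold criterion.

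Counts of 2 genes within 1 library do not depend on the scaling between libraries, so pairs of genes with opposed or linked roles were compared by their log2 count ratio (0.5 added to each count). Only the change of a ratio between groups is read here, since counts of different genes also reflect their lengths. The log2 ratio of Thbd to F3 was 3.77, 3.87 and 3.99 in control libraries and 0.20, 0.06 and -0.07 in LPS libraries. Every LPS library was lower than every control library, with a mean difference (LPS minus control) of -3.82 (SE 0.10). The ratio of Tfpi, which encodes the inhibitor of tissue factor and factor VII, to F3 changed by -5.15 (SE 0.12), while Tfpi itself stood at 16.7 CPM in control and 17.9 CPM in LPS (log2 fold change 0.11, SE 0.06, adjusted p = 0.141, edgeR). For these and the other 3 ratios below, 5 in all, the groups did not overlap and the exact two-sided permutation test gave p = 0.1, adjusted 0.1, the smallest that 3 against 3 libraries allow.

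Thrombospondin-1, a large adhesive glycoprotein of platelet granules and matrix that also activates latent TGF-beta, took the largest share of counts of the 9 in LPS libraries. Thbs1 (ENSMUSG00000040152.8, chr2:118111876-118127133, plus strand) stood at 87.7, 90.6 and 88.1 CPM in control and 4216, 4242 and 4291 CPM in LPS libraries. Replicates lay closer together, relative to their mean, than for any other member in either group, and the groups were far apart. The mean went from 88.8 ± 1.59 to 4249.6 ± 38.1 CPM (SD, n = 3), a 47.8-fold difference (5.58 on the log2 scale, SE 0.04, adjusted p = 1.82e-24, edgeR). Thbs1 thereby took 0.369% of all counts in LPS libraries against 0.0102% in control. Gm29233, a lincRNA annotated on the opposite strand, shares 208 exonic bases with Thbs1 and had 0 counts in each control library and 16, 9 and 31 in LPS libraries. The counting strand is not given in the sources used here, so reads of the shared bases cannot be assigned to either gene.

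Urokinase, the plasminogen activator tied to cell surfaces, was the most abundant member per exonic length in control cells. Plau (ENSMUSG00000021822.3, chr14:20836660-20843385, plus strand) stood at 95.6, 92.8 and 89.1 CPM in control and 472, 466 and 435 CPM in LPS libraries. The groups were separated by several times the range within LPS. Its log2 fold change was 2.31 (SE 0.04, adjusted p = 4.39e-19, edgeR), or 4.94-fold.

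The urokinase receptor, a lipid-anchored surface protein that concentrates urokinase on the cell, had a larger fold change than its ligand. Plaur (ENSMUSG00000046223.10, chr7:24462484-24475968, plus strand) stood at 27.4, 25.5 and 27.7 CPM in control and 318, 313 and 305 CPM in LPS libraries. All LPS libraries lay far above the control range, with no overlap. The log2 fold change was 3.54 (SE 0.04, adjusted p = 8.53e-22, edgeR), or 11.6-fold. The log2 ratio of Plaur to Plau was -1.80, -1.86 and -1.69 in control and -0.57, -0.58 and -0.51 in LPS libraries, a change of 1.23 (SE 0.06) with higher values in every LPS library.

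Tissue-type plasminogen activator, the activator that works on fibrin itself, was near the counting floor in control cells only. Plat (ENSMUSG00000031538.6, chr8:22757727-22782844, plus strand) received 2, 4 and 4 counts in the control libraries, against 2027, 1981 and 1971 after LPS. The control counts lay between 2 and 4, around the floor of 3, whereas the LPS libraries agreed closely at 60.4, 60.7 and 57.9 CPM. The ratio of summed normalized counts was 829 with a 95% counting interval from 450 to 1729, and edgeR's log2 fold change of 9.63 (SE 0.11, adjusted p = 1.27e-21) depends on the prior count at such low control values. This SE, derived from the F statistic, is much smaller than the counting interval allows and understates the uncertainty. Plat was placed 19th of the 15687 tested genes by log2 fold change, on that same fitted value. The log2 ratio of Plau to Plat was 10.83, 9.86 and 9.84 in control and 2.97, 2.94 and 2.91 in LPS libraries, a change of -7.24 (SE 0.33) whose size rests on the few control counts of Plat.

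RNA for PAI-2, the serpin that inhibits urokinase and tissue-type plasminogen activator and is found largely inside macrophages, rose together with that of both activators. Serpinb2 (ENSMUSG00000062345.10, chr1:107511423-107535478, plus strand) stood at 2.10, 1.88 and 2.08 CPM in control and 68.6, 60.0 and 70.6 CPM in LPS libraries. LPS library 2 was the lowest of its group, though still far above control. The log2 fold change was 5.04 (SE 0.08, adjusted p = 1.56e-19, edgeR), or 32.8-fold. Relative to Plau, the log2 ratio of Serpinb2 changed by 2.72 (SE 0.11), from -5.50, -5.62 and -5.41 in control to -2.78, -2.96 and -2.62 in LPS libraries. Serpinb10, annotated as a polymorphic pseudogene on the same strand, shares 291 exonic bases with Serpinb2, and its own log2 fold change was -0.71 (SE 0.38, adjusted p = 0.108, edgeR).

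**Figure D2:**
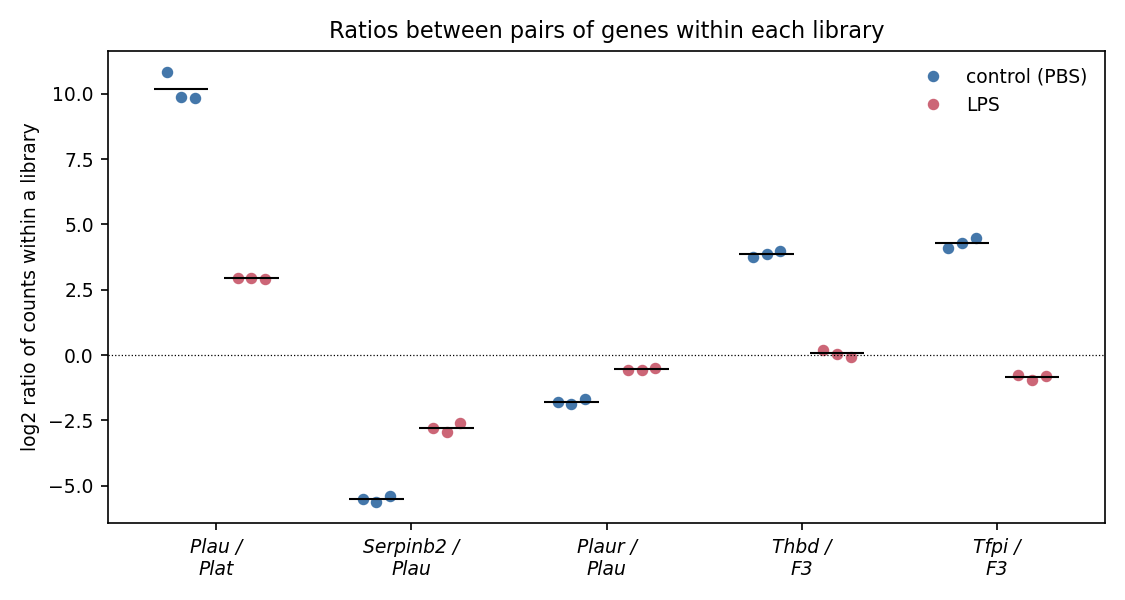
Log2 ratio of the counts of 2 genes within each library, 3 control and 3 LPS libraries for each of 5 pairs, each point 1 library. Thbd to F3 goes from between 3.77 and 3.99 to between -0.07 and 0.20, and Serpinb2 to Plau from between -5.62 and -5.41 to between -2.96 and -2.62.

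Per exonic length, the order of the members changed between the groups. In control libraries the normalized RPKM (CPM per kilobase of merged exons) ran from Plau at 39.1 through Thbs1 at 14.6, F13a1 at 12.9, F10 at 11.3 and Plaur at 10.3 to Thbd at 3.34, Serpinb2 at 0.860, F3 at 0.333 and Plat at 0.0116, and no neighbours in this order overlapped. In LPS libraries Thbs1 stood first at 699.7 ± 6.28 RPKM (SD, n = 3), followed by Plau at 193 ± 8.49, Plaur at 119 ± 2.49 and Serpinb2 at 28.3 ± 2.40. F10 at 19.4, F13a1 at 14.6 and F3 at 12.8 came next, and only the last neighbours, Plat at 9.56 ± 0.245 and Thbd at 9.04 ± 0.466, overlapped. Among all tested genes by RPKM, Thbs1 was placed 2595th in control and 63rd in LPS libraries. The order depends on the length used, and the length of the annotated coding transcript was tried after the data were seen. With it, F13a1 was second in control at 22.5 RPKM and Thbs1 fell to place 5 at 15.2 RPKM. In LPS libraries Plaur was second at 207 ± 4.33 RPKM, close to Plau at 195 ± 8.58. Thbd was last in LPS at 9.04 RPKM, below F3 at 17.2 and Plat at 23.6.

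**Figure D3:**
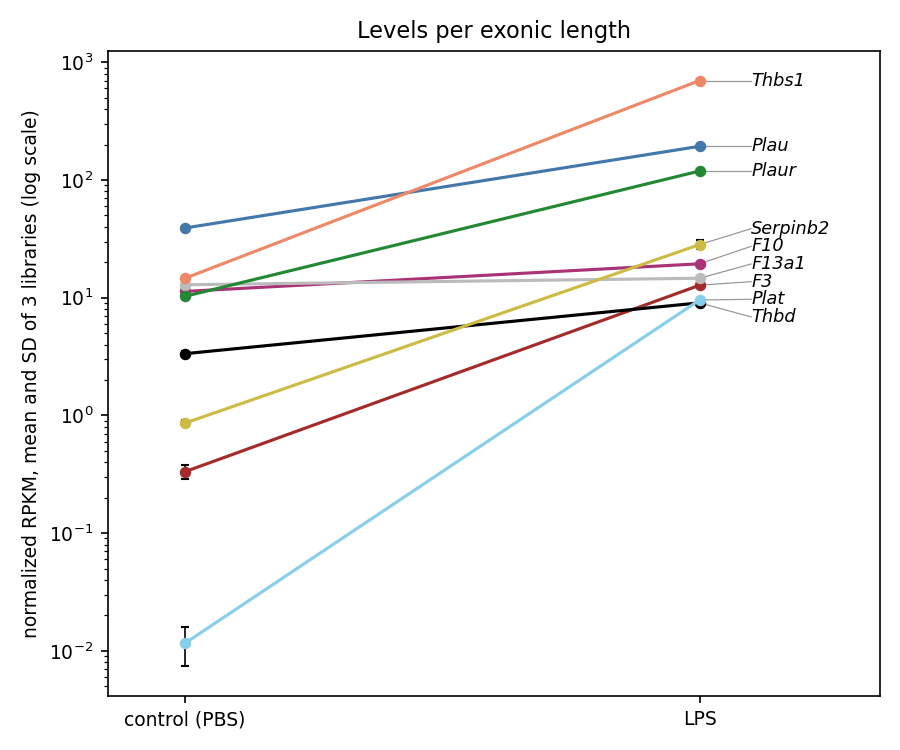
Normalized RPKM (log scale, mean and SD of 3 libraries) of the 9 genes in control and LPS libraries, with merged exons as length. Lines cross between the groups: Plau leads in control at 39.1 and Thbs1 in LPS at 699.7, while Plat goes from 0.0116 to 9.56 (gene names are spread apart for legibility).

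The other genes of the pathway were read from lists. From 6 lists of coagulation and fibrinolysis genes with 52 genes in all, 28 passed the filter on low counts, of which 2 were past both criteria and higher in LPS, 0 lower and 26 neither, beside 10.5% of all tested genes higher and 10.4% lower. Their median log2 fold change was 0.16. On the adjusted p alone, 14 were higher and 3 lower, beside 67.7% of all tested genes in either direction. The 24 genes that were not tested had at most 14 counts in any library. Fga, Fgb and Fgg for fibrinogen and Plg for plasminogen had 0 counts in all 6 libraries. A count of 0 in a library, taken alone, allows up to 3 counts there.

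Procr and F5 were the genes past both criteria. Procr, the receptor that presents protein C to thrombin bound by thrombomodulin, rose from 5.22 to 42.7 CPM (log2 fold change 3.03, SE 0.06, adjusted p = 3.83e-18, edgeR). F5, the cofactor of activated factor X, rose from 2.83 to 7.79 CPM (log2 fold change 1.46, SE 0.13, adjusted p = 1.22e-08, edgeR). By list, 1 of 6 tested cascade genes and 1 of 5 anticoagulant genes were past both criteria, and none of 5 fibrinolysis genes, 2 protease-activated receptors, 6 genes of factor maturation and membrane exposure or 4 thrombospondin family genes and receptors. The lists' medians ran from -0.08 for the cascade to 0.67 for the thrombospondin list.

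**Figure D4:**
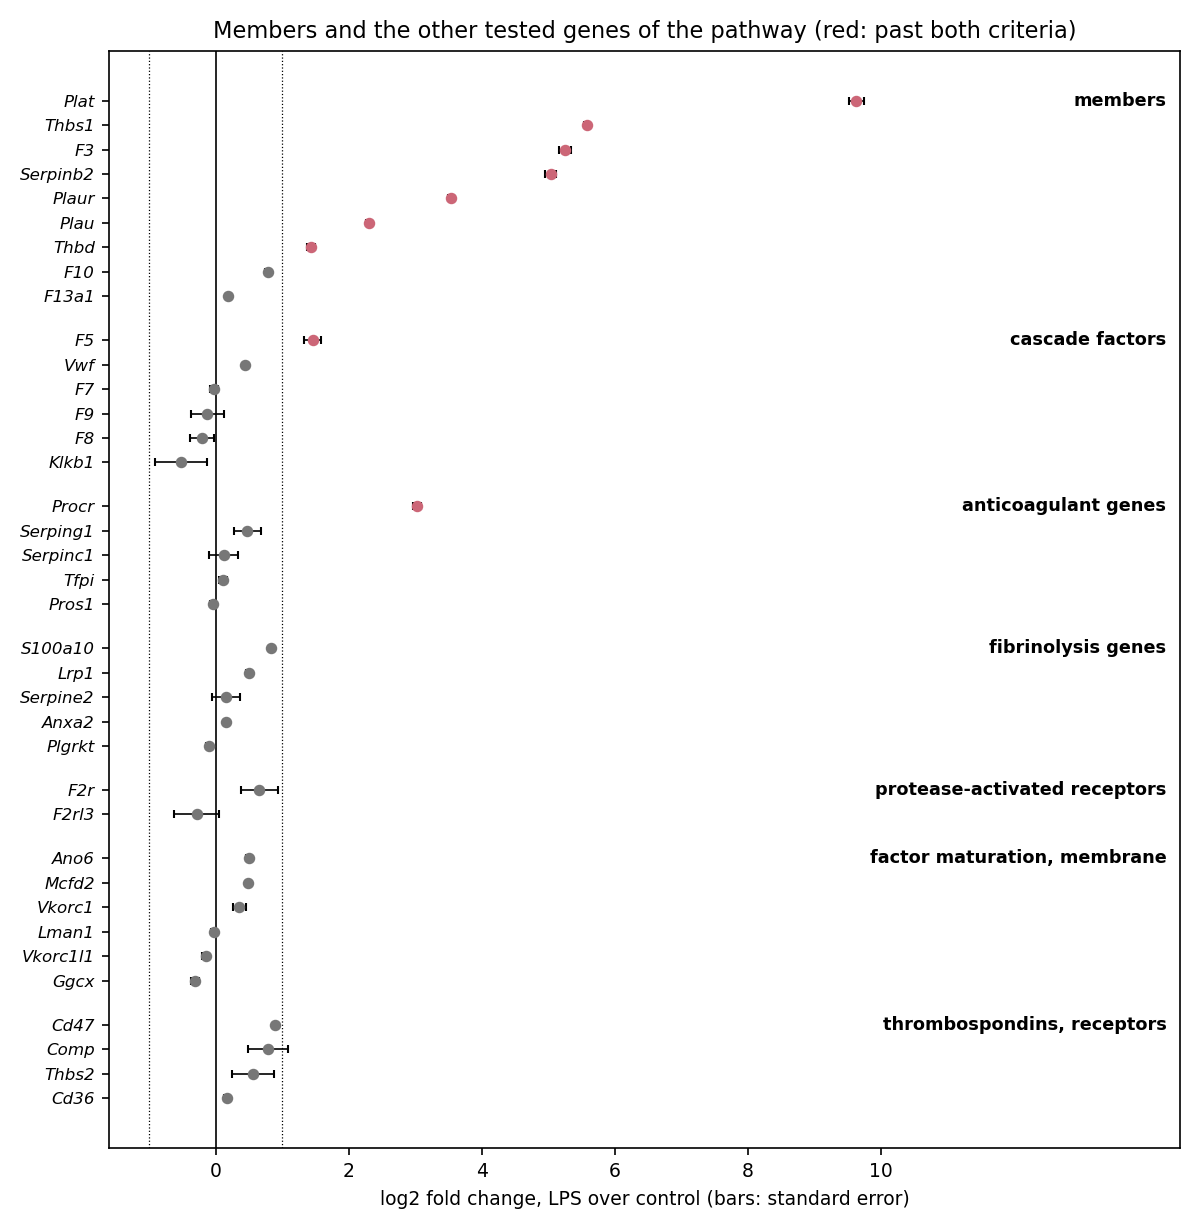
Log2 fold change (LPS over control, bars are standard errors) of the 9 members and of the 28 other tested genes in 6 lists, with genes past both criteria in red and dotted lines at -1 and 1. Among the other genes shown only Procr (3.03) and F5 (1.46) lie past the dotted lines with an adjusted p under 0.05. The bars come from the F statistic, and those of Plat, F3 and, slightly, Serpinb2 are smaller than counting error alone.

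Genes related to Serpinb2 or lying beside the members were examined in the same fit. Other genes with a Serpinb symbol, named for the intracellular clade of serpins, numbered 27, with pseudogenes such as Serpinb10 included. Of these, 9 were tested and 1 was past both criteria, a share near the 10.5% of all tested genes. This was Serpinb8, 54527 bp from Serpinb2, with 24.1 CPM in control and 48.4 CPM in LPS (log2 fold change 1.00, SE 0.04, adjusted p = 6.85e-13, edgeR), so close to the threshold that 6 other settings and 3 libraries decide the call. Of 18 nearest protein-coding neighbours of the members, 10 were tested, 2 were past both criteria and higher in LPS (10.5% of all tested genes) and 0 lower (10.4%). Their log2 fold changes ran from -0.87 to 2.19 with a median of 0.29. The other neighbour past the criteria was Rasgrp1, 768874 bp from Thbs1, at 2.19 (SE 0.23, adjusted p = 1.22e-07, edgeR).

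Untranslated 3′ ends were searched for AU-rich letters, which are known from short-lived mRNAs of cytokines and early response genes; this search was chosen after the values were seen. The nonamer TTATTTATT occurred once each in Thbd, Thbs1 and Serpinb2, 3 of the 9 members, and in 7.13% of 12076 tested genes with an annotated 3′ UTR. The matches are shown in capitals within 29 bases of the GENCODE M21 transcript on GRCm38, 5′ to 3′.
Thbd, chr2:148404537-148404565, minus strand: ttgtacatatTTATTTATTggagtttcgc
Thbs1, chr2:118126155-118126183, plus strand: taaatacagaTTATTTATTaaccctgttc
Serpinb2, chr1:107525197-107525225, plus strand: ttttacagtgTTATTTATTgtttatataa
The shorter core ATTTA occurred 7 times in F3 and Thbd, 6 times in Thbs1 and Serpinb2, 4 times in F13a1, 2 times in Plau, Plaur and Plat, and 0 times in F10, and 66.0% of the genes hold at least 1. These numbers were not corrected for length, and a longer 3′ UTR leaves more room for a match. The annotated 3′ UTR of F10 has only 18 bases, so its 0 cannot be set against the others. Those of Thbs1, Thbd and Serpinb2 have 2104, 1747 and 657 bases, beside a median of 953 over the genes.

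Markers of macrophages and of other cells that express these genes were read in the same libraries. All 8 macrophage markers were tested and their summed level was 29946 to 31229 CPM in control and 35887 to 36245 CPM in LPS libraries. Lyz2 made up most of this sum, at 23272 CPM in control and 24224 CPM in LPS. Only Cd14 was past both criteria, and it rose from 398 to 3623 CPM. Not all markers were higher: Fcgr1 went from 396 to 284 CPM (log2 fold change -0.48) and Mertk from 109 to 106 CPM. Platelet and megakaryocyte markers, of which 3 of 7 passed the filter, summed to 6.07 to 6.74 CPM in control and 6.14 to 7.54 CPM in LPS libraries, and none of the 7 was at 0 in all libraries. The 6 endothelial markers, 3 tested, summed to 34.4 to 37.5 CPM in control and 43.5 to 46.7 CPM in LPS, mostly from Kdr, and Cdh5 rose from 0.734 to 2.63 CPM (log2 fold change 1.84). Neutrophil markers (5 of 6 tested) went from 33.6 to 35.8 CPM in control to 44.3 to 46.2 CPM in LPS libraries. Most of this came from S100a9 (19.36 CPM in control, 24.97 CPM in LPS) and S100a8 (11.32 and 14.95 CPM). Mpo (2.89 and 3.55 CPM) and Camp (0.618 and 0.868 CPM) were also higher on average. Elane stood at 0.567 CPM in both groups, and Ly6g had at most 3 counts in any library. Fibroblast markers (5 of 6 tested) went from 13.7 to 14.8 CPM to 15.3 to 17.7 CPM, and neither list had a marker past the criteria. The marker sums were not recomputed under other scalings. Library size alone moved the median of all tested genes by -0.40 on the log2 scale. The 4 T and B cell markers, 1 tested, summed to at most 1.07 CPM, and the 4 hepatocyte markers had 3 or fewer counts in every library, with Alb, Ttr and Serpina1a at 0 in all 6. The part of platelet, endothelial, neutrophil and fibroblast RNA in the members' values was not tested, and in bulk RNA more cells of a type and more RNA per cell cannot be told apart.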

How the data were processed

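Total RNA of BMDMs was sequenced in 3 control (PBS) and 3 LPS libraries, made with a stranded total RNA kit. The authors aligned paired-end reads to GRCm38 (mm10) with HISAT2 2.1.0 and SAMtools 1.17 and deposited raw counts per gene from featureCounts 2.0.0, with 1 column per library. The annotation release, counting strand and handling of reads with several matches are not given in the sources used here, so genes that overlap are uncertain. Of 55335 identifiers, 55154 matched GENCODE M21 when versions were ignored, and 181 did not. Symbols, coordinates (counted from 1) and exon lengths come from that release.

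Counts were tested in R 4.3.3 with edgeR 4.0.16 (filterByExpr, TMM, quasi-likelihood test, Benjamini-Hochberg over 15687 genes), with group as the only term; the study's methods name pairwise comparisons and no further term. Standard errors were derived from the F statistic. For Plat, F3 and, slightly, Serpinb2, with few control counts and large folds, they are smaller than counting error alone. The code was tested on simulated counts. The members and gene lists were chosen with earlier results of these data known, and no p-value is adjusted over a list alone. A gene of the lists and a ratio that uses it are not reported here and are left out of the list counts. Named were all members, other pathway genes past both criteria or in a ratio, other Serpinb genes past both criteria, and neighbours that were past both criteria or overlapped a member, and F7, the genes named in the marker and 0-count sentences and those of the closing observations were added after their values had been seen. Replicate pairs differed by 5.01 to 18.4 times the sampling variance (chi-square per degree of freedom), so each was counted as a separate library.

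Pairing comes from the labels, which give the replicate numbers as batches. After subtraction of the group mean, libraries with the same number correlated at -0.0139, 0.0822 and 0.0387 across genes, and a fit with the number as a block was an alternative. Other alternatives were DESeq2 1.42.0 (its size factors and its test), library size alone, upper quartile scaling, limma 3.58.1 voom, 2 other count filters, a test against a log2 fold change of 1, removal of the 10 genes with most counts, a pseudocount of 1 in the ratios, and leaving out each library.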

Additional observations from a re-analysis of the deposited data

How the results depend on the processing

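Of 297 values recomputed under alternatives, 269 kept their direction and their side of both criteria (log2 fold changes), their direction (ratios), stayed within 1.5 times (counts) or moved by less than 1 SD (RPKM). Among these, the ratios taken over same-numbered pairs equal the main differences by construction and could not change. The glmTreat log2 fold changes are those of the main fit, where only the adjusted p can differ. The count of members past the criteria and higher in LPS was 7 under each alternative except the filter of 10 counts in every library, where it was 6 because Plat is removed and gives no value, and 7 without each library in turn. With library size alone F13a1 reversed to -0.22 and the members' other log2 fold changes were at their lowest (F3 4.85, F10 0.37, Thbd 1.03, Thbs1 5.18, Plau 1.90, Plaur 3.13, Plat 9.24, Serpinb2 4.63). Among other pathway genes 2 were higher in LPS, and 3 with no filter beyond 1 count. F13a1 lost its adjusted p with upper quartile scaling (0.041, adjusted p = 0.339, edgeR). Tested by glmTreat against a log2 fold change of 1, F10 (0.78) and F13a1 (0.18) had an adjusted p of 1, as the values lie under that fold. Leaving out 1 library moved Plat between 9.36 and 9.79.

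The count of other Serpinb genes higher in LPS fell from 1 to 0 with library size alone, upper quartile scaling, no filter beyond 1 count, 10 counts in every library, edgeR's glmTreat and removal of the 10 genes with most counts. It ranged from 0 to 1 when 1 library was left out, with 0 without control replicate 2, control replicate 3 or LPS replicate 1. With library size alone 1 other Serpinb gene was lower. With the coding transcript length the RPKM of 7 members moved by 1 SD or more, that of Plau by less, and that of Thbd was the same. With the replicate block, 7 members, 2 other pathway genes and 1 other Serpinb gene were higher in LPS, and the pairing changed no call. A control level near the floor limits the fold of Plat.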

Other observations

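Several genes that act on the cell surface beside the members had an adjusted p under 0.05 (edgeR's quasi-likelihood test) without reaching the fold criterion. Such an adjusted p was reached by 67.7% of all tested genes in either direction. The genes given here were picked after their values were seen and were not refitted under the other scalings. S100a10, whose product binds plasminogen and tissue-type plasminogen activator together with annexin A2, stood at 89.9 CPM in control and 160.2 CPM in LPS (log2 fold change 0.83, SE 0.03, adjusted p = 1.85e-13). Cd47, a receptor of thrombospondin-1, stood at 233 CPM in control and 433 CPM in LPS (log2 fold change 0.89, SE 0.03, adjusted p = 4.51e-14). Lrp1, the endocytic receptor that clears complexes of activators and serpins, stood at 2564 CPM in control and 3621 CPM in LPS (log2 fold change 0.50, SE 0.04, adjusted p = 2.46e-09). Differences were much smaller for Anxa2, the gene of annexin A2 (log2 fold change 0.15, adjusted p = 0.000827, edgeR). The same held for Cd36 of the thrombospondin list (0.17, adjusted p = 0.00117, edgeR). Both are smaller in size than the median shift of -0.40 under library size alone. In the other direction, Plgrkt of the fibrinolysis list stood at 43.2 CPM in control and 40.2 CPM in LPS (log2 fold change -0.11, SE 0.04, adjusted p = 0.0282, edgeR).

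Vwf, which encodes the platelet-binding von Willebrand factor and is usually read as an endothelial and megakaryocyte gene, stood at 121, 122 and 115 CPM in control and 164, 164 and 160 CPM in LPS libraries (log2 fold change 0.44, SE 0.03, adjusted p = 2.20e-09, edgeR). Vwf was not refitted under the other scalings either. Library size alone moved the median of all tested genes by -0.40 on the log2 scale, nearly the size of this difference. In the same libraries the 7 platelet and megakaryocyte markers together stood at 6.07 to 6.74 CPM in control and 6.14 to 7.54 CPM in LPS. The 6 endothelial markers together stood at 34.4 to 37.5 CPM in control and 43.5 to 46.7 CPM in LPS. CPM of different genes also reflect their lengths, so these levels cannot be compared directly. Per exonic length Vwf stood at 7.43 RPKM in control and 10.1 RPKM in LPS. The highest marker of each list stood at 3.84 and 4.55 RPKM (Kdr) and at 2.54 and 2.55 RPKM (Ppbp). The part of either cell type in the level of Vwf was not tested.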
